A study of Mus musculus with 6 samples.

Results

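The 9 genes described here belong to the response of endothelium to blood flow: the transcription factors Klf2 and Klf4, the target genes Nos3 and Thbd, the ion channel Piezo1, and the endothelin system of Edn1, Ednra, Ednrb and Ece1. They were chosen by name, with earlier results of these data known. All 9 were found among the 25006 genes counted and among the 14815 genes tested. Reads were counted in the ventricular part of NMRI mouse hearts at embryonic day 17.5. The null-labelled group held 3 libraries of genotype VecadcreERT2; Prox1f/f, in which a tamoxifen-dependent Cre recombinase driven by the VE-cadherin promoter is meant to delete floxed Prox1 in endothelial cells. The control group held 3 libraries with the genotype label WT. Parents on both sides are described as Prox1 f/f, so the labels leave unsaid whether the controls carried floxed alleles. The protocol listed for all 6 libraries gives the mother tamoxifen at E13.5 and E14.5, dosed as 5 mg for each 40 g of her weight. No label ties a library to its own embryo. The p-values therefore reflect spread among these samples, which may be technical.

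Shear stress is the drag of flowing blood on the vessel lining. Steady flow is known to open mechanosensitive channels such as PIEZO1 and, through the kinases MEKK3, MEK5 and ERK5 and the factors of the MEF2 family, to raise KLF2 and KLF4. These factors then raise endothelial nitric oxide synthase (Nos3) and thrombomodulin (Thbd) and lower endothelin-1 (Edn1). Endothelin-1 is cut from its precursor by endothelin converting enzyme (Ece1) and acts on receptor A (Ednra), found mainly on muscle and mesenchymal cells, and receptor B (Ednrb), found on endothelium among other cells.

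RefSeq promoter windows, from 250 bases before to 50 bases after the annotated start, existed for 7 of the 9 genes on GRCm38.p6. Both strands of each 300-base window were searched for GAGACC, the shear stress response element, for CACCC, the core bound by KLF factors, for CTA and TAG set apart by 4 bases, bound by MEF2 factors, for TGACTCA, bound by AP-1, and for AGATAA, bound by GATA factors. The 250 bases before the start are printed for Klf2 and Ednrb, which both differed between the groups, and for Edn1 and Piezo1, whose windows held GAGACC. Capitals mark every match of these motifs, on either strand, and each sequence runs 5′ to 3′ on the strand of the gene.
Klf2 (chr8:72318812-72319061, plus strand): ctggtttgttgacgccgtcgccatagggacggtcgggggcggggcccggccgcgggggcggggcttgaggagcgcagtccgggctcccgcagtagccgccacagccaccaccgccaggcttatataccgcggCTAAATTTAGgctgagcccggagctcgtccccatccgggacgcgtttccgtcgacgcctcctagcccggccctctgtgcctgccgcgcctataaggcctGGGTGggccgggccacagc
Ednrb (chr14:103843702-103843951, minus strand): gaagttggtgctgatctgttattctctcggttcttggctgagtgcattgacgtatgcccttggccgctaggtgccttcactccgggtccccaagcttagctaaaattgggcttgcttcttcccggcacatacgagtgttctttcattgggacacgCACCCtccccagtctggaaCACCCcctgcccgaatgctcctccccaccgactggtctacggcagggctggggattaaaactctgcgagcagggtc
Edn1 (chr13:42301226-42301475, plus strand): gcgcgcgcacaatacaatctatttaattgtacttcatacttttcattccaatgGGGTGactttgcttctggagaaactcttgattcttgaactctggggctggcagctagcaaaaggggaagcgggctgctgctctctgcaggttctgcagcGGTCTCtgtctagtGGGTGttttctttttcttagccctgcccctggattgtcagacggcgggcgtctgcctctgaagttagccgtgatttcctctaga
Piezo1 (chr8:122551330-122551579, minus strand): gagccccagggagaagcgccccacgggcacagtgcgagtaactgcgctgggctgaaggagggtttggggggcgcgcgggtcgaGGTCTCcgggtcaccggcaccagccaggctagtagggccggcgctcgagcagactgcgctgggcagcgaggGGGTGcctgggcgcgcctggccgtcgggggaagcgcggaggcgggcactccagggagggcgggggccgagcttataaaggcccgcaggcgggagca

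The Klf2 window held the MEF2 letters as CTAAATTTAG, starting 118 bases before the start, and CACCC on the reverse strand. Across 32851 RefSeq promoter windows, 3.69% held this MEF2 pattern, and of the members with a window Klf2 was the one that did. GAGACC lay on the reverse strand 98 bases before the start in Edn1 and at position −167 from it in Piezo1; 16.4% of all windows held it. CACCC, present in 57.5% of all windows, occurred 3 times each in the Edn1 and Ednrb windows, once in Piezo1, and in 3 of the 4 Ece1 windows. Ece1 windows 1 and 2 overlap and hold the same CACCC site. AGATAA, present in 11.2% of all windows, occurred once, in Edn1 after the start, and TGACTCA (5.2% of all windows) in none. The windows of Klf4 and Ednra held no match. These are matches of letters in short windows and do not show binding.

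Libraries held 36216206 to 41408973 counts in the null-labelled group and 35195544 to 44330594 in the control group, so 3 counts amount to 0.0677 to 0.0852 CPM, a unit that adjusts counts for library size. Prox1 itself stood no lower in null-labelled ventricles (164 ± 3.91 CPM, against 147 ± 3.16 CPM in controls; SD, n = 3 each). It was called higher (log2 fold change 0.15, adjusted p = 0.0331). Counts per gene do not separate deleted from other exons, and cells other than endothelium may express Prox1, so its level does not check the labels. Reads of Esr1, part of which CreERT2 fusions carry, numbered 244 to 298 where the label gives Cre and 9 to 19 in controls. The presence of Cre and the loss of Prox1 cannot be told apart. Null-labelled libraries 1 and 3, called male, also carried Xist, at 44.6 and 139 CPM, against 0.632 and 0.809 CPM in the male controls.

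Thbd and Klf2 fell and Ednrb rose in null-labelled ventricles, and the other 6 members did not pass the test. Levels were 1.42-fold lower for Thbd, 1.24-fold lower for Klf2 and 1.40-fold higher for Ednrb. Calls were thus made for 3 of 9 members, against 5.41% of all genes tested. By direction, 2 members were called lower, against 2.98% of all genes, and 1 higher, against 2.43%. The 2 groups of libraries did not overlap for 6 of the 9 members, against 26.6% of all genes. An unadjusted p under 0.05 was found for 7 members, against 20.5% of all genes. The median log2 fold change of the members was −0.15, and that of all genes tested was −0.004. The 9 genes were picked by name with earlier results of these data known. These shares describe the list and are not a test of it.

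**Figure D1:**
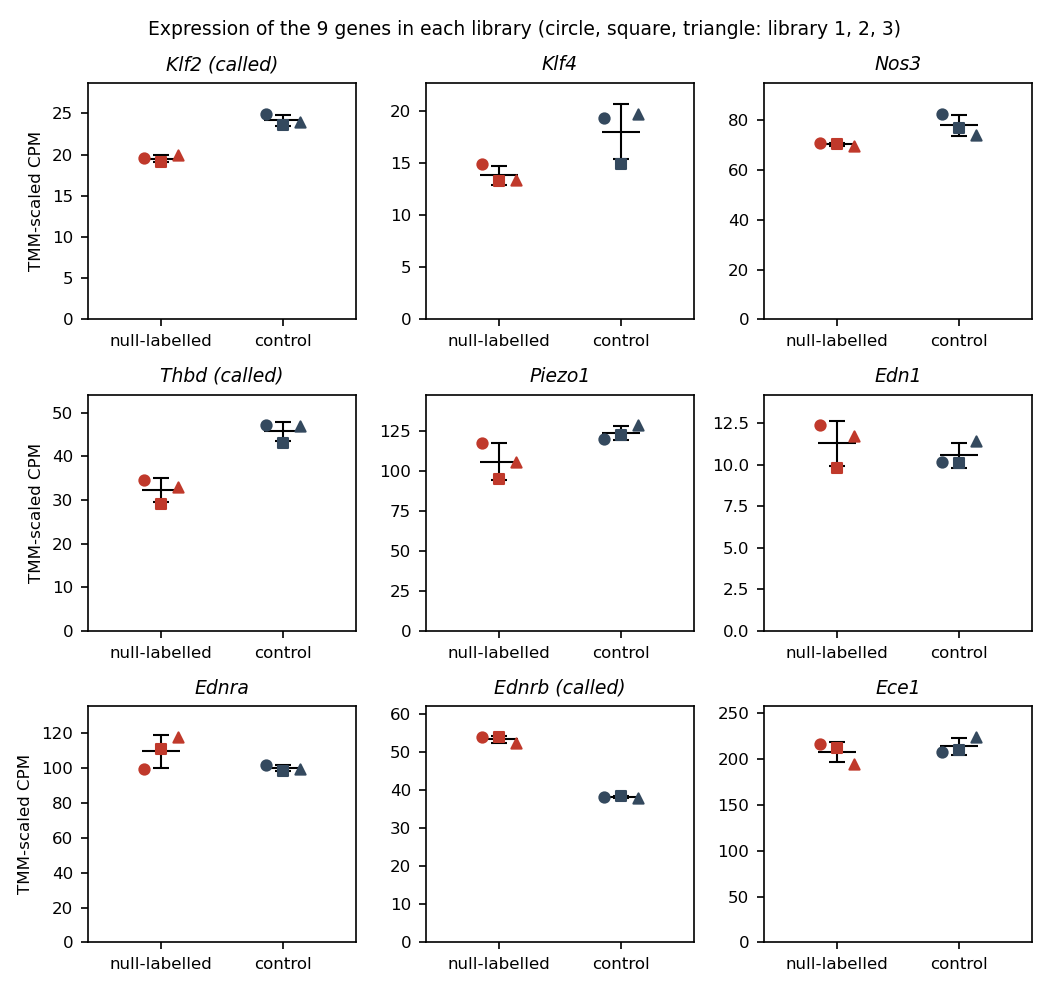
TMM-scaled CPM of each gene (vertical axis, from 0) in the 3 null-labelled libraries (red, left) and the 3 control libraries (blue, right), with the mean as a bar and the SD as whiskers. Klf2 and Thbd lie lower and Ednrb higher in every null-labelled library than in any control.

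Klf2, a zinc finger factor that sets the quiescent, flow-adapted state of endothelium (ENSMUSG00000055148; chromosome 8, 72319033 to 72321656), had 787, 693 and 823 counts in null-labelled libraries 1 to 3, against 1098, 848 and 845 in control libraries 1 to 3. After scaling these were 19.6, 19.1 and 19.9 CPM in null-labelled libraries, against 25.0, 23.6 and 23.9 CPM in controls. All 3 null-labelled values lay below the lowest control. Its log2 fold change was −0.31 ± 0.055 (SE), with adjusted p = 0.0155. It passed in 14 of 17 alternative settings. One of these, for every gene, is the main fit read at a threshold of 0.1, which any gene called at 0.05 passes. The call was lost without null-labelled library 2 (adjusted p = 0.0659) and without null-labelled library 3 (adjusted p = 0.0529), with log2 fold changes of −0.29 and −0.32. Without null-labelled libraries 1 and 3 together it was −0.34 and was not called. That fit leaves null-labelled library 2 alone in its group and measures no spread within it. Calls lost in that fit, here and below, cannot be told apart from an effect of fewer libraries.

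Klf4, the related factor induced by the same route (chromosome 4, 55527143 to 55532466), had 14.9, 13.3 and 13.4 CPM in null-labelled libraries, against 19.4, 14.97 and 19.8 CPM in controls. The groups did not overlap, but control library 2 lay close to the null-labelled values, at 14.97 CPM beside 14.9 CPM in null-labelled library 1. The log2 fold change of −0.38 ± 0.11 did not pass (adjusted p = 0.0786, 95% interval −0.62 to −0.14). Without control library 2 it passed at −0.50 (adjusted p = 0.0195), and DESeq2 with all libraries also called it (adjusted p = 0.0299). It was called in 3 of 17 alternatives, 1 of them the main fit read at a threshold of 0.1. Adjusted p was 0.121 to 0.227 without any other single library. Without null-labelled libraries 1 and 3 the log2 fold change was −0.44 and was not called.

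Among the target genes, Thbd encodes thrombomodulin, the endothelial receptor that turns thrombin into an activator of protein C (ENSMUSG00000074743; chromosome 2, 148404466 to 148408188). It had 34.6, 29.2 and 32.9 CPM in null-labelled libraries, from 1392, 1060 and 1359 counts, against 47.1, 43.1 and 46.9 CPM in controls, from 2073, 1553 and 1657 counts. Every null-labelled library lay well below the lowest control. This gave a log2 fold change of −0.50 ± 0.067, with adjusted p = 0.0047. It was called in 17 of 17 alternatives, with values from −0.65 to −0.44.

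Nos3 encodes the endothelial nitric oxide synthase (chromosome 5, 24364810 to 24384474). It had 70.7, 70.5 and 69.7 CPM in null-labelled libraries, against 82.6, 77.0 and 74.2 CPM in controls. The groups did not overlap, and the controls spread over a wider range than the null-labelled libraries. A log2 fold change of −0.15 ± 0.046 did not pass (adjusted p = 0.0988, 95% interval −0.25 to −0.046), and it did without control library 3 (−0.18, adjusted p = 0.0407). Without control library 1 it was −0.10 (adjusted p = 0.265), and without null-labelled libraries 1 and 3 it was −0.15 and was not called. It was called in 2 of 17 alternatives, 1 of them the main fit read at a threshold of 0.1. Nos3 shares 294 exon bases with Atg9b on the opposite strand. It shares 1040 with Gm15587, also on the opposite strand, which was not among the genes counted. Reads of such stretches cannot be told apart without a known strand setting. Atg9b had 129 to 137 counts in the null-labelled group and 120 to 151 in the control group, beside Nos3 counts of 2562 to 2881 in null-labelled and 2623 to 3635 in control libraries.

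Piezo1, the stretch-gated cation channel (chromosome 8, 122481698 to 122551329), had 117, 94.7 and 106 CPM in null-labelled libraries, against 120.1, 122.5 and 128.5 CPM in controls. Null-labelled library 1 stood near the lowest control, while library 2 stood well below it. At −0.22 ± 0.073 the log2 fold change did not pass (adjusted p = 0.133, 95% interval −0.39 to −0.054). Without null-labelled library 1 it passed at −0.30 (adjusted p = 0.0336), and DESeq2 called it (adjusted p = 0.0385), the 2 calls among 17 alternatives. Without null-labelled library 2 it was −0.15 (adjusted p = 0.223). Without null-labelled libraries 1 and 3 it was −0.38 and did not pass. Piezo1 shares 2441 exon bases with Ctu2 on the opposite strand, which had 468 to 539 counts in the null-labelled group and 446 to 660 in the control group, beside Piezo1 counts of 3442 to 4717 in null-labelled and 4410 to 5283 in control libraries.

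In the endothelin system the ligand and its processing enzyme did not pass. Edn1 (chromosome 13, 42301476 to 42307990) had 12.4, 9.77 and 11.7 CPM in null-labelled libraries, against 10.2, 10.1 and 11.4 CPM in controls. The groups overlapped in both directions, and the log2 fold change of 0.098 ± 0.10 had a 95% interval of −0.13 to 0.32 (adjusted p = 0.647). Ece1 (chromosome 4, 137862237 to 137965229) had 216, 213 and 195 CPM in null-labelled libraries, against 208, 210 and 224 CPM in controls. Its groups overlapped as well, with a log2 fold change of −0.041 ± 0.049 and a 95% interval of −0.15 to 0.069 (adjusted p = 0.701). Edn1 was called in 0 of 17 alternatives and Ece1 in 0 of 17.

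The receptors differed in what the test returned. Ednrb, the B receptor (ENSMUSG00000022122; chromosome 14, 103814625 to 103844402), had 54.1, 53.9 and 52.4 CPM in null-labelled libraries, from 2174, 1959 and 2164 counts, against 38.3, 38.4 and 38.0 CPM in controls, from 1684, 1384 and 1342 counts. Within each group the values lay within 2 CPM of each other, far less than the gap between the groups. The log2 fold change was 0.48 ± 0.041 (adjusted p = 0.000441), the 14th smallest p among 14815 genes. It was called in 17 of 17 alternatives, with values from 0.48 to 0.50. The value was 0.50 without null-labelled libraries 1 and 3, a fit that leaves null-labelled library 2 alone in its group.

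Ednra, the A receptor (chromosome 8, 77663031 to 77724464), had 99.6, 111 and 118 CPM in null-labelled libraries, against 102, 98.5 and 99.3 CPM in controls. Null-labelled library 1 lay among the controls and the other two above them. The log2 fold change of 0.13 ± 0.057 did not pass (adjusted p = 0.222, 95% interval 0.0066 to 0.26), nor did it in any of 17 alternatives. Per kilobase of exon, the ratio of Ednra to Ednrb was 1.44, 1.61 and 1.75 in null-labelled libraries, against 2.07, 2.00 and 2.04 in controls. Every null-labelled ratio lay below every control ratio. The difference between the fold changes of the receptors was not tested.

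**Figure D2:**
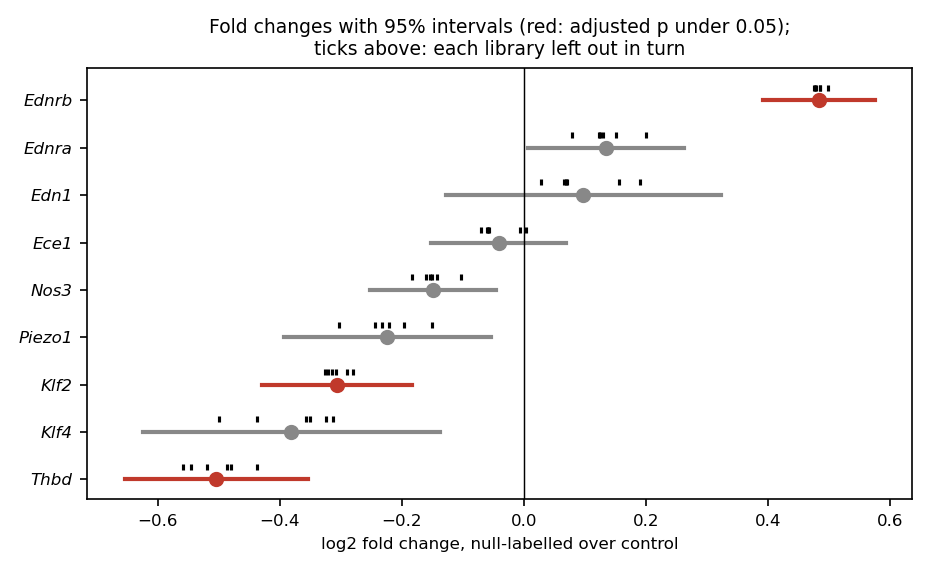
Log2 fold change of each gene, null-labelled over control (horizontal axis), with its 95% interval (red where adjusted p is under 0.05) and, as ticks above it, the values with each library left out in turn. Ednrb stands at 0.48 with ticks close together, Thbd and Klf2 stand at −0.50 and −0.31, and Edn1 and Ece1 have intervals that cross 0.

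Within the null-labelled group Klf4, Thbd, Piezo1 and Edn1 had the same order of libraries, highest in library 1 and lowest in library 2. Library 2 is the null-labelled library called female by Xist and Y-linked genes. Control library 3 is the female control, and among these genes it held the highest control value of Klf4, Piezo1 and Edn1. Thbd was highest in control library 1, at 47.1 CPM beside 46.9 CPM in control library 3. A term for sex left the 3 calls of Klf2, Thbd and Ednrb in place.

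Per kilobase of exon, the 9 genes spanned from 4.54 to 39.2 CPM in null-labelled libraries and from 4.94 to 40.4 CPM in controls. Ece1 was the highest in both groups, at 39.2 ± 2.14 CPM per kilobase in null-labelled libraries and 40.4 ± 1.72 in controls. In null-labelled libraries Ednra (20.02), Nos3 (17.02) and Ednrb (12.5) followed, each above the next without overlap, and then Piezo1 (10.7), Klf2 (10.6), Thbd (8.66), Edn1 (5.27) and Klf4 (4.54). Piezo1 and Klf2 overlapped there, as did Edn1 and Klf4. In controls the order after Ece1 was Nos3 (18.9), Ednra (18.2), Klf2 (13.1), Piezo1 (12.4), Thbd (12.3), Ednrb (8.96), Klf4 (5.92) and Edn1 (4.94). The ranges of Nos3 and Ednra overlapped, those of Klf2 and Piezo1 overlapped, those of Piezo1 and Thbd overlapped, and so did those of Klf4 and Edn1. Ednrb thus took rank 4 of the 9 levels in null-labelled ventricles and rank 7 in controls, and Klf2 took rank 6 in null-labelled ventricles and rank 4 in controls.

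**Figure D3:**
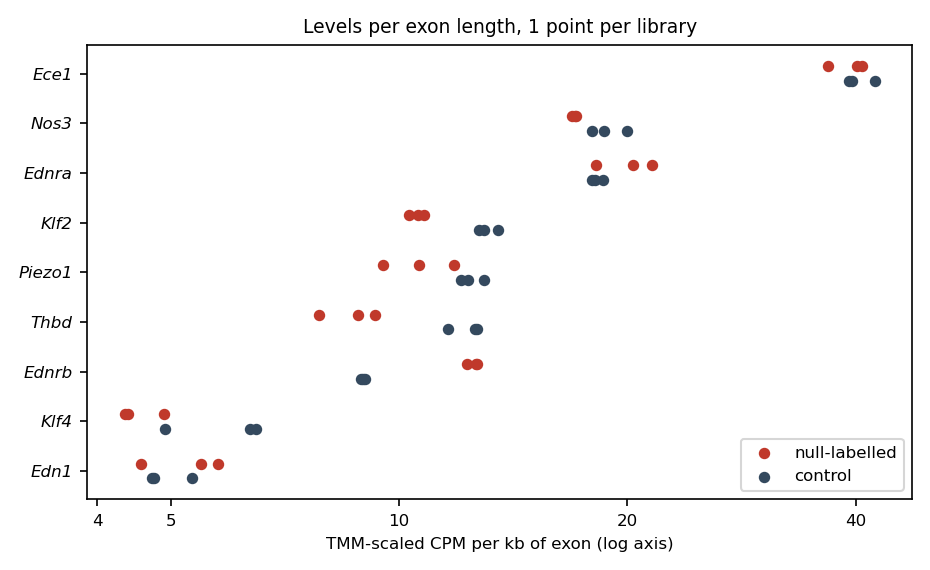
TMM-scaled CPM per kilobase of exon (horizontal log axis) for each gene, with 1 point per null-labelled library (red, above) and per control library (blue, below). Ece1 stands near 40 in both groups, and Ednrb lies at 12.3 to 12.7 in null-labelled libraries and at 8.90 to 9.01 in controls.

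Whole ventricle mixes endothelium with other cells, and in such samples fewer cells of a type and less RNA per cell cannot be told apart. Endothelial markers were present in all libraries, with a summed level of 20 genes of 2342 to 2536 CPM in null-labelled libraries, against 2672 to 3008 CPM in controls. Of the 20 genes, 10 fell, 1 rose and 9 did not pass, with a median log2 fold change of −0.23. Among all genes tested, 2.98% were called lower and 2.43% higher. Mmrn2, an endothelial matrix protein, was the one that rose (0.31). Egfl7, a vascular matrix factor, fell by 0.37 on the log2 scale, Fabp4, a capillary lipid chaperone, fell by 0.75, and Sox18, an endothelial transcription factor, fell by 0.50. Lower calls numbered 5 without null-labelled library 2, 5 without null-labelled library 3 and 1 without null-labelled libraries 1 and 3.

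The mean log2 level of these endothelial genes was 0.26 lower in null-labelled libraries (6.30 ± 0.055, against 6.56 ± 0.084 in controls; SD, n = 3 each). Set against this mean within each library, Klf2 was −1.98 ± 0.064 in null-labelled libraries and −1.94 ± 0.043 in controls on the log2 scale, and the groups overlapped. Thbd was −1.27 ± 0.10 in null-labelled libraries and −1.03 ± 0.045 in controls, a difference of −0.24, and the groups did not overlap. On this scale 61.9% of all genes had groups without overlap, and 0.992% were lower without overlap. The differences of Klf4, Nos3 and Piezo1 were −0.10, 0.11 and 0.031, and their groups overlapped.

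On the same scale Ednrb was −0.55 ± 0.042 in null-labelled libraries and −1.29 ± 0.087 in controls, a difference of 0.74. Edn1, Ednra and Ece1 were higher by 0.35, 0.39 and 0.22 without overlap. Since 60.9% of all genes were higher without overlap on this scale, those directions are common to most genes.

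**Figure D4:**
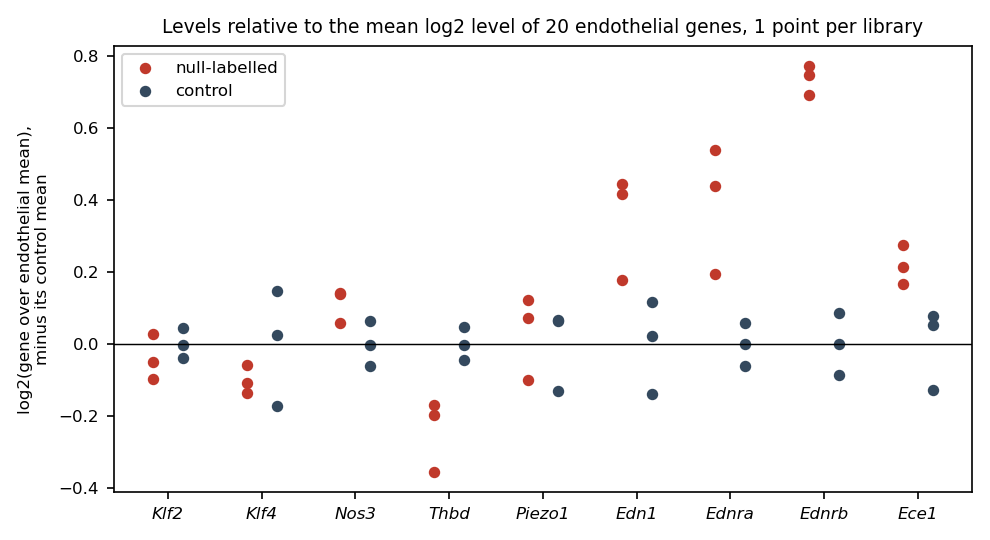
Level of each gene relative to the mean log2 level of 20 endothelial genes in the same library, minus its control mean (vertical axis, log2), for null-labelled (red, left) and control (blue, right) libraries. Thbd lies below and Ednrb above all controls, by 0.24 and 0.74 on average, while the points of Klf2 overlap.

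Markers of other cell types moved as well, and their part in the results was not tested. Calls in either direction made up 5.41% of all genes tested. Of 10 fibroblast genes 3 rose, Pdgfra, Tcf21 and Col1a1, by log2 fold changes of 0.33, 0.22 and 0.29; the summed level was 9223 to 10230 CPM in the null-labelled group and 7535 to 8799 CPM in the control group. Of 10 macrophage genes 5 rose, led by the complement genes C1qc, C1qa and C1qb (0.53, 0.72 and 0.57), with Cx3cr1 and Mrc1 (0.51 and 0.41), and with sums of 101 to 126 CPM in the null-labelled group and 78.9 to 90.3 CPM in the control group. Fibroblast calls numbered 0 to 1 without any 1 null-labelled library or without control library 2 and 5 without control library 3. Macrophage calls numbered 0 without null-labelled library 1, null-labelled library 2 or control library 2, and 1 without control library 1. Without null-labelled libraries 1 and 3 both lists had 0 calls. Of 12 mural genes, the pericytes and smooth muscle that use Ednra, 2 fell, Cspg4 and Smtn (−0.21 and −0.15), with sums of 2861 to 2957 CPM in the null-labelled group and 2954 to 3258 CPM in the control group. Cspg4 was not called without any 1 null-labelled library, and Smtn was called in 0 of the 6 fits that leave out 1 library. Without control library 1 there was also 1 higher call, and without null-labelled libraries 1 and 3 there were 0 calls.

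Of 8 genes of neural crest and Schwann cells, which use Ednrb, 4 were tested and 0 called by edgeR, limma-voom or DESeq2, 3 having an unadjusted p under 0.05; Erbb3, the highest, had −0.19 (adjusted p = 0.105). Of the 4 tested, 2 lay above 0 and 2 below, with a median of 0.15. Dbh had 0.47 (adjusted p = 0.212) and Sox10 0.73 (adjusted p = 0.24). Sox10 stood at 0.676 CPM in null-labelled libraries and 0.405 CPM in controls. The sum of the list was 31.7 to 33.9 CPM in the null-labelled group and 34.8 to 36.2 CPM in the control group. Of 8 endocardial genes 0 were called by edgeR, limma-voom or DESeq2, with 3 at an unadjusted p under 0.05; Cgnl1, the highest, had a value of 0.00 on the log2 scale (adjusted p = 0.999). Of the 8 endocardial genes, 7 lay above 0 and 1 below, with a median of 0.12, which was 0.014 without control library 1. Tmem108 had the smallest p (0.25, adjusted p = 0.0856). The endocardial sum was 580 to 616 CPM in the null-labelled group and 531 to 605 CPM in the control group. Without control library 3, and also with a replicate block, 1 gene was called higher. Of 8 lymphatic genes tested, Reln (−0.72) and Mmrn1 (−2.38) fell, Prox1 (0.15) rose and 5 did not pass, with sums of 363 to 391 CPM in the null-labelled group and 393 to 440 CPM in the control group; Ccl21a had 0 counts in all libraries. Mmrn1 was not called without null-labelled library 2, null-labelled library 3 or control library 2, and Prox1 was called only without control library 3 among the fits that leave out 1 library. Of 8 cardiomyocyte genes 1 fell, Actc1 (−0.18), and 7 did not pass. Of the 8, 5 lay above 0 and 3 below, with a median of 0.02. Sums were 63080 to 64740 CPM in the null-labelled group and 61500 to 66600 CPM in the control group. The Actc1 call was lost without each library but control library 3. Settings that called 1 cardiomyocyte gene higher included DESeq2, the sex term and the fit without control library 1. Without null-labelled libraries 1 and 3 the lymphatic list had 1 lower call, and the neural crest, endocardial and cardiomyocyte lists had 0.

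Upstream of the members, 1 of 15 other flow sensors rose, 2 fell and 12 did not pass, beside 5.41% of all genes called, with a median of −0.08. Kcnj2, a potassium channel that responds to flow, had 68.3, 66.1 and 67.1 CPM in null-labelled libraries, against 56.8, 57.3 and 56.1 CPM in controls (log2 fold change 0.24, adjusted p = 0.00991). Plxnd1, a semaphorin receptor with a role as a flow sensor, and Pecam1, a junction protein of the same role, fell by 0.20 and 0.22 on the log2 scale. Kcnj2 kept its call without any 1 library. Plxnd1 lost it without each null-labelled library or control library 1 (adjusted p up to 0.0964), and Pecam1 without each library but null-labelled library 1 (up to 0.177). Of 11 genes of the kinase and cerebral cavernous malformation (CCM) route that controls Klf2 and Klf4, 1 rose, Mef2a (log2 fold change 0.18, adjusted p = 0.0324), and 10 did not pass, with a median of −0.007. Mef2a was called only without control library 3 among the fits that leave out 1 library. In whole ventricle, the cells that gave the Kcnj2 and Mef2a reads cannot be told apart.

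Downstream, 5 of 16 other flow-induced genes and KLF targets fell, 1 rose and 10 did not pass, with a median of −0.09. Of all genes tested, 2.98% were called lower and 2.43% higher. Aqp1, a water channel, had 96.5, 80.9 and 91.2 CPM in null-labelled libraries, against 139, 143 and 140 CPM in controls (log2 fold change −0.65 ± 0.058, adjusted p = 0.000818). Cav1, the main protein of endothelial caveolae and an inhibitor of nitric oxide synthase, had 513, 451 and 470 CPM in null-labelled libraries, against 749, 656.5 and 728 CPM in controls (log2 fold change −0.57 ± 0.063, adjusted p = 0.00217). Gja4, the gap junction gene of arterial endothelium, had 15.02, 17.25 and 14.02 CPM in null-labelled libraries, against 22.9, 22.7 and 23.6 CPM in controls (log2 fold change −0.58 ± 0.079, adjusted p = 0.0048). None of the 3 genes had overlapping groups, as was so for 26.6% of all genes, and each was called without any 1 library. The angiopoietin receptor Tek and Slc9a3r2 also fell, by 0.20 and 0.31 on the log2 scale, and Hmox1, heme oxygenase, rose by 0.42. Lower calls numbered 3 without null-labelled library 2 or without null-labelled library 3, and 1 without null-labelled libraries 1 and 3. The number of higher genes was 2 without control library 3 and 0 without any other single library. Tek, like Pecam1, is also one of the 20 endothelial markers, whose mean log2 level differed by −0.26 between the groups; the part of that difference in these calls was not tested.

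Genes known to be lowered by steady flow did not show calls: of 11 others, edgeR called 0, the unadjusted p was under 0.05 for 3, and the median was 0.14. DESeq2 and limma-voom each called 1 higher and 1 lower. Vcam1, a leukocyte adhesion molecule, had 145 ± 6.23 CPM in null-labelled libraries and 132 ± 4.59 CPM in controls (log2 fold change 0.14, adjusted p = 0.0849). Ccn2 had the smallest p of the list and lay the other way, by −0.69 on the log2 scale (adjusted p = 0.0599). Its level was 102 ± 18.5 CPM in null-labelled libraries and 165 ± 8.95 CPM in controls, without overlap. Apln lay higher in null-labelled libraries, by 0.54 (adjusted p = 0.0871), also without overlap. Of the 11 genes, 7 lay above 0 and 4 below. With 1 library left out, the number called was 1, a lower gene, without null-labelled library 1 or without null-labelled library 2, and 0 otherwise. The median was 0.036 without control library 1, and −0.0037 with 1 lower call without null-labelled libraries 1 and 3.

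Around Nos3, 16 other genes of the nitric oxide pathway were tested. Of these 3 fell, 1 rose and 12 did not pass, beside 5.41% of all genes called, with a median of −0.04. Cav1, described above, was the largest change. Nos2, the inducible synthase, had 5.02 ± 0.525 CPM in null-labelled libraries and 6.95 ± 0.441 CPM in controls (log2 fold change −0.47, adjusted p = 0.0436), Ddah1, which degrades an inhibitor of the synthases, had −0.27, and Prkg1, the kinase activated by cyclic GMP, had 0.24. Without each library but control library 3, the number of lower genes was 1 and that of higher genes 0.

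Around Thbd, 12 other anticoagulant and fibrinolytic genes were tested. Of these 1 fell, 1 rose and 10 did not pass, beside 5.41% of all genes called, with a median of 0.07. Pros1, protein S, the cofactor of activated protein C, had 37.1, 37.2 and 33.0 CPM in null-labelled libraries, against 27.5, 28.1 and 28.4 CPM in controls (log2 fold change 0.35 ± 0.057, adjusted p = 0.0106). Its call was lost without null-labelled library 2 (adjusted p = 0.0503) and without null-labelled libraries 1 and 3, which left 1 lower and 0 higher calls in the list. Serpind1, a thrombin inhibitor, had 11, 5 and 12 counts in null-labelled libraries, against 93, 54 and 57 in controls (log2 fold change −2.87, adjusted p = 0.00147). Procr, the endothelial receptor of protein C and partner of thrombomodulin, had 9.18 CPM in null-labelled libraries and 9.17 CPM in controls.

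Of 9 other tested genes of the endothelin pathway, 1 rose and 8 did not pass, with a median of −0.12. Mme, neprilysin, which degrades endothelins, had 9.38, 9.05 and 8.81 CPM in null-labelled libraries, against 6.70, 5.95 and 7.50 CPM in controls (log2 fold change 0.44 ± 0.10, adjusted p = 0.0391), and was called only without control library 3 among the fits that leave out 1 library. The other ligand Edn3 stood at 0.165 CPM in null-labelled libraries and 0.256 CPM in controls, and the other converting enzyme Ece2 at 0.191 CPM in null-labelled libraries and 0.258 CPM in controls. Gnaq and Gna11, the G proteins through which the receptors signal, had log2 fold changes of −0.025 and −0.036.

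Of 12 other tested members of the KLF family 0 fell and 1 rose, Klf9, a hormone-responsive factor (24.4 ± 1.99 CPM in null-labelled libraries, against 19.7 ± 1.03 CPM in controls, adjusted p = 0.0394), and 11 did not pass, with a median of 0.02; Klf9 was not called with any 1 library left out. Klf2 and Klf4 are also induced within minutes in many cells, as immediate early genes are. Of 15 immediate early genes the main edgeR fit, DESeq2 and limma-voom called 0, and 1 reached an unadjusted p under 0.05. That gene was Ier2 (−0.26, adjusted p = 0.061). With no filter on low counts, and at a threshold of 0.1, 1 gene was called lower. Of the 15, 10 lay below 0 and 5 above, with a median of −0.03. Sums were 308 to 340 CPM in the null-labelled group and 326 to 359 CPM in the control group. Jun, the highest, stood at −0.029 on the log2 scale (adjusted p = 0.795). Without null-labelled libraries 1 and 3, calls numbered 0 in the flow sensors, the kinase route, the nitric oxide pathway, the endothelin pathway and the KLF family.

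**Figure D5:**
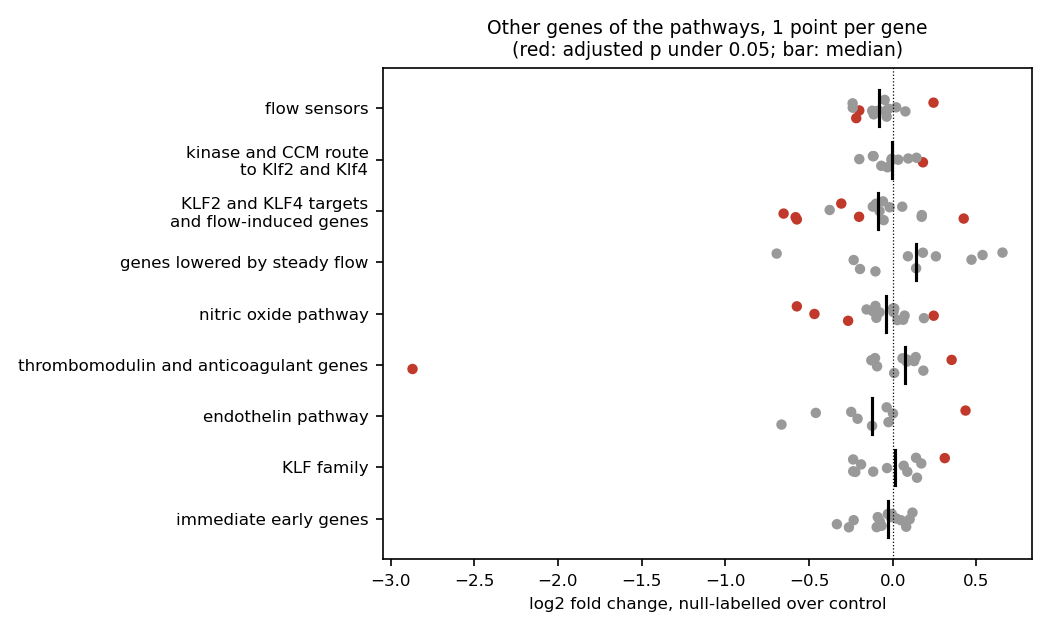
Log2 fold change, null-labelled over control (horizontal axis), of the other genes of each pathway or family, with 1 point per gene, red where adjusted p is under 0.05, and a black bar at the median. The flow-induced genes have 5 red points below 0 and 1 above, and the medians run from −0.12 for the endothelin pathway to 0.14 for the genes lowered by steady flow, which is 0.036 without control library 1.

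The genes whose levels over the 6 libraries were most like each member were found among 9641 other genes of at least 10 CPM by Pearson correlation. The 6 libraries form 2 groups, so any gene that differs between the groups in a like way scores high, and the values are a description. For Klf2 they were Yeats2 and Tmem255a (r = 0.999 and 0.998), for Thbd Kitl and S100a16 (0.997 and 0.996), and for Ednrb Abca1 and Vps13b (0.997 each). Tmem255a had 37.1 ± 1.30 CPM in null-labelled libraries and 70.2 ± 5.96 CPM in controls (adjusted p = 0.000112). Abca1, the cholesterol exporter, had 117 ± 3.76 CPM in null-labelled libraries and 73.2 ± 1.41 CPM in controls (adjusted p = 4.89e-05), and Kitl, the KIT ligand, 57.7 ± 7.23 CPM in null-labelled libraries and 85.1 ± 4.24 CPM in controls (adjusted p = 0.0168). For the members that were not called, the closest genes were Epas1 for Klf4 (0.990), Ripor1 and Stoml2 for Nos3 (0.999 and 0.987), Vapa and Mob1a for Piezo1 (0.987 and 0.981), Cln6 and Nfix for Edn1 (0.980 and 0.976), Klhl23 and Glcci1 for Ednra (0.992 and 0.988), and Selenon and Tmem128 for Ece1 (0.982 and 0.978).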

How the data were processed

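The deposited values are unnormalised whole-number counts for each Ensembl gene, in a separate table for every library. The tools named, per the submitters' processing notes, are STAR, HTSeq 0.6.1p1, cutadapt 1.13 and DESeq2, with build mm10. Not given in the sources used here are their roles, the strand setting and the release of the annotation. Of 25006 identifiers, 24991 were matched to GENCODE M21 of the same build, which also gave exon lengths.

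Computation used R 4.3.3. The filterByExpr rule left 14815 genes, which were scaled by the trimmed mean of M values (TMM). Testing was two-sided, by quasi-likelihood in edgeR 4.0.16 (robust option on), null-labelled over control, with group as the only term. Benjamini-Hochberg adjustment ran over all genes tested, with a call under 0.05; any adjusted p printed without a tool is from it. The F statistic and fold change gave standard errors and 95% intervals. Levels set between genes are CPM per kilobase of merged exons. Levels relative to endothelial genes used log2(CPM + 0.5).

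On simulated counts for 14815 genes in this comparison, with 50 genes changed at each fold, the test recovered 38% of genes changed 1.2-fold, 80% at 1.5-fold, 92% at 2-fold and 98% at 3-fold, with 8 false calls. The changed genes had a mean of at least 1 CPM.

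Alternatives were other scalings and filters, DESeq2 1.42.0, limma-voom (limma 3.58.1), each library left out, a replicate block, a sex term and a threshold of 0.1. The omission of null-labelled libraries 1 and 3 was added after seeing the data. It leaves null-labelled library 2 alone in its group, so it measures no spread within that group. The members, gene lists and tests were chosen with earlier results of these data known. All members are named, with up to 3 called genes of smallest p per list or, where none is called, the gene of highest mean CPM, and the 2 genes of highest Pearson correlation with each member. One gene that this rule names is not reported here. The remaining genes were picked with their values in view. Promoter windows and their sequences come from RefSeq (GRCm38.p6).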

Additional observations from a re-analysis of the deposited data

How the results depend on the processing

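The number of genes called was 801 in all and 3 among the 9 members. At a threshold of 0.1 these counts were 1430 and 5. DESeq2 called 1087 genes and 5 members. Without null-labelled libraries 1 and 3 they were 52 and 2. With each library left out in turn, the genes called ranged from 258 (without null-labelled library 2) to 942 (without control library 3) and the members from 2 to 4. The genes called were 385 without null-labelled library 1, 277 without null-labelled library 3 and 402 without control library 2.

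Thbd and Ednrb were called in all 17 alternatives and Klf2 in 14. Edn1 reversed to −0.11 without null-labelled libraries 1 and 3 and Ece1 to 0.0033 without null-labelled library 3 (range −0.070 to 0.0033 with each library left out), both uncalled in every setting; the cause was not tested. With a replicate block, 570 genes and 3 members were called. Same-numbered libraries did not deviate together (correlations −0.048, −0.095 and −0.16), and 0 of 6 libraries correlated best with their own number. With 3 libraries a group, 38% of simulated 1.2-fold changes were recovered, so real changes of that size may be missed. The simulation changed 50 genes at each fold, drawn at a mean of at least 1 CPM, while 801 genes were called here. The share recovered for genes at the levels of the members was not measured.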
